A study of Mus musculus with 6 samples.

Results

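The genes described here are 82 of the 18059 genes in the tables. They were picked by symbol as the Srsf, Hnrnp, Sf3a, Sf3b, Snrp, Lsm, Prpf and U2af families. These families were chosen with earlier results of these data known. Most members encode SR proteins, heterogeneous nuclear ribonucleoproteins (hnRNPs) or proteins of the small nuclear ribonucleoprotein particles (snRNPs). All are called splicing genes below, although the roles given for some LSm genes, such as Lsm14a and Lsm10, lie outside the splicing of introns. The genes were measured by RNA-seq in primary cardiac fibroblasts, cells cultured directly from digested hearts of C57BL/6 mice 1 to 2 weeks old, in medium with 15% serum. Of the 6 libraries, 3 came from cells given saline (control) and 3 from cells given PDGF-DD, the dimer of platelet-derived growth factor D, for 12 hours at a labelled dose of 20 µM, a unit that could not be checked. The protocol text takes all cells from mice with a global knockout of PDGF-D, whereas the genotype field reads control for the saline samples and PDGF-D -/- for the PDGF-DD samples. If that field is right, genotype and treatment cannot be told apart. Nothing in the labels ties a library to its own culture or animal, so the p-values rest on a spread that may be technical alone.

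Introns are removed from messenger RNA precursors by the spliceosome, which assembles on each intron from the U1, U2, U4, U5 and U6 snRNPs. U1 and the U2AF dimer mark the ends of the intron, the SF3 complexes hold U2 on the branch site, and the tri-snRNP of U4, U6 and U5 brings in the catalytic centre. Most snRNAs carry a ring of Sm proteins and U6 carries a ring of LSm proteins, while SR proteins and hnRNPs bind exons and introns and bias which splice sites are used. In fibroblasts, as in other cells, these proteins are expressed broadly and most are needed for growth.

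RefSeq promoter windows of the GRCm38.p6 build were matched for 70 of the 82 genes (93 windows of 300 bases, a gene having more than one where it has several starts). The 250 bases upstream of the start, read 5′ to 3′, are printed for the gene with the largest called rise among those with a single window in each of 5 families, so that the sequences can be set beside the values below. Lsm14a, one of the genes that fell, is printed as well, although it held none of the motifs there. Lsm3 and Snrpa1, picked alike in their families, also held none and are not shown. The printed set was thus chosen in part by motif and does not compare genes that rose with genes that fell. Capitals mark CCGGAAG, a core bound by ETS factors, or CCAAT, the box bound by NF-Y, on either strand. The submitters' notes name mm9 for the tables, so the coordinates belong to the sequences only.
Srsf7, chr17:80207306-80207555, minus strand: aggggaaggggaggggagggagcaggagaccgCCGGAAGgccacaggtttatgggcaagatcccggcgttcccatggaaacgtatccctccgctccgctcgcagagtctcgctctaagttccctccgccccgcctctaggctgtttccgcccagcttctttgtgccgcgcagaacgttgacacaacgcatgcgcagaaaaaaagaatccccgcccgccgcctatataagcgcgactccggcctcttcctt
Hnrnpab, chr11:51606882-51607131, minus strand: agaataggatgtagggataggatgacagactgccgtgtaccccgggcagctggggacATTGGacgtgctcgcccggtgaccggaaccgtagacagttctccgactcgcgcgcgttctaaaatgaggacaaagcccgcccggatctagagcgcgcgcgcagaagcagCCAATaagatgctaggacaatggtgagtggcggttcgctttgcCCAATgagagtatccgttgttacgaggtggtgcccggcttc
Sf3a3, chr4:124714611-124714860, plus strand: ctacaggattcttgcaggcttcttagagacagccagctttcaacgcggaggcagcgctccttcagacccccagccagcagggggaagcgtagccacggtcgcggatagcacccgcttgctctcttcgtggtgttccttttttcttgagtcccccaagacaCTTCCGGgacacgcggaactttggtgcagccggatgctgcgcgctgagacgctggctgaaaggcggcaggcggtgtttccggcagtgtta
Snrpd3, chr10:75517792-75518041, plus strand: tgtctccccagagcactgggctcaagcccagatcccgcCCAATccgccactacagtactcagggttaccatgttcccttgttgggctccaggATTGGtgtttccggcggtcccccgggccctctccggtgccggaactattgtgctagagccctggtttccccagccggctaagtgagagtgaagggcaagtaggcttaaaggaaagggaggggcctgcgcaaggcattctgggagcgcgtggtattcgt
Prpf31, chr7:3629735-3629984, plus strand: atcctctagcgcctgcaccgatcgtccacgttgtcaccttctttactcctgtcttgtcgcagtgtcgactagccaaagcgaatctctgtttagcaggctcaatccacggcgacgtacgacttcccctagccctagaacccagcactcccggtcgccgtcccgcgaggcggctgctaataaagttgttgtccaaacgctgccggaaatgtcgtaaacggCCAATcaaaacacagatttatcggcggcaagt
Lsm14a, chr7:34389706-34389955, minus strand: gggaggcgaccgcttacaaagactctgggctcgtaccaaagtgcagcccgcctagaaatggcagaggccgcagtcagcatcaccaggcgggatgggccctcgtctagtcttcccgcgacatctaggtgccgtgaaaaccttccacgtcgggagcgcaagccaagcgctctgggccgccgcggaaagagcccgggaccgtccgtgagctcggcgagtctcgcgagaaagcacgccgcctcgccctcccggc

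CCGGAAG lay in 28.0% of the 93 windows, against 16.4% of the windows of all tested genes and 8.86% of all windows in the table. Its share was 28.6% in windows of the splicing genes that rose and also 28.6% in windows of those tested that did not. CCAAT lay in 47.3% of the windows, 57.1% for the genes that rose and 35.7% for those that did not, against 37.5% over tested genes. The E-box CACGTG, bound by MYC among others, lay in 11.8% of the windows against 9.67% over tested genes, and TATAAA in 8.60% against 7.28%. The E2F sequence TTTCGCGC lay in 2.15% (2 of the 93 windows) against 0.59%, and the palindromic NRF1 motif in 1.08% (1 window) against 1.95%. These 2 shares rest on too few windows to compare. Both strands were searched, no motif is contained in another, and a match describes the sequence only.

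The libraries held 21221114 to 21371829 estimated counts, and each detected 15880 to 16026 genes. Pdgfd, the gene named in the genotype, stood at 5.56, 5.38 and 4.30 CPM (counts scaled to a common library size) in the control libraries and 3.24, 3.36 and 3.82 CPM with PDGF-DD, a log2 change of -0.55 ± 0.14 (SE; edgeR adjusted p = 0.00245). This leaves the labels unchecked, since gene-level counting cannot tell whether an edited exon is there. Control replicate 1 stood apart from the other controls. The chi-square per degree of freedom of its counts was 5.11 and 5.7 against them, compared with 2.48 between those others and 1.9 to 2.74 among the PDGF-DD libraries. Fibroblast markers summed to 46559 to 48647 CPM in the control libraries and 41460.2 to 42206 CPM with PDGF-DD, with 6 of 10 lower and 1 higher in the test described below. Markers of other heart cells were also present at lower levels: cardiomyocyte markers summed to 163 to 174 CPM in the control libraries and 118 to 133 CPM with PDGF-DD (3 of 7 tested lower, Myh7 at or near 0), smooth muscle and pericyte markers to 342 to 365 CPM in the control libraries and 262 to 269 CPM with PDGF-DD (4 of 7 lower, 1 higher), and endothelial markers to 230.4 to 250.3 CPM in the control libraries and 210.4 to 220.0 CPM with PDGF-DD (1 of 8 lower). Tnnt2 held most of the cardiomyocyte sum, with means of 156 CPM in the control libraries and 115 CPM with PDGF-DD. In controls Myh6 and Actc1 had means of 5.8 and 4.06 CPM, and the remaining cardiomyocyte markers of 0.06 to 0.98 CPM. Notch3 (mean 169 CPM in controls, 86.6 CPM with PDGF-DD) and Cspg4 (108 and 128 CPM) held most of the smooth muscle and pericyte sum and moved in opposite directions. Macrophage markers summed to 72.7 to 78.2 CPM in the control libraries and 66.8 to 71.9 CPM with PDGF-DD (0 of 8 called) and epicardial markers to 52.8 to 56.2 CPM in the control libraries and 47.9 to 50.8 CPM with PDGF-DD (1 of 6 lower). Their part in the results was not tested, and in bulk RNA a change in the share of a cell type and a change of RNA per cell cannot be told apart.

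With PDGF-DD, 46 of the 80 splicing genes that could be tested were higher and 2, Lsm14a and Lsm10 of the LSm family, were lower, while 32 did not pass. A gene was called when its adjusted p in edgeR's quasi-likelihood test was under 0.05, and over all 13270 tested genes 19.1% were called higher and 17.4% lower, against 57.5% and 2.5% of the splicing genes. Among the 4153 tested genes within the interquartile range of the splicing genes' mean level (35.2 to 161 CPM), 27.7% were higher and 19.6% lower, and 23 of the 40 splicing genes in that range were higher. The changes were small. The called rises ran from 1.08-fold to 1.30-fold with a median of 1.17-fold, and all 80 genes stayed within 1.5-fold. Counted in either direction, 36.5% of all tested genes and 48 of the 80 splicing genes were called. The median log2 fold change was 0.15 over the splicing genes and -0.01 over all tested genes, and it was positive for 71 of the 80.

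For 50 of the 80 genes (62.5%) every PDGF-DD library lay above every control library, against 23.6% of all tested genes, and for 5 genes every PDGF-DD library lay below, against 23.5%. Of the 46 genes called higher, 43 showed this separation, and Lsm3, Lsm8 and Hnrnpa2b1 were called with overlapping groups. Srsf12 and Hnrnpa1l2-ps2 had 0 to 4 counts per library and were not tested. Leaving out control replicate 1 raised the count of higher genes to 52 and left 1 lower (background 19.8% and 17.8%), and leaving out control replicate 2 gave 38 higher. Leaving out PDGF-DD replicate 3 gave 0 lower. Over all tested genes, leaving out 1 library gave 2147 to 2643 higher and 1729 to 2374 lower. Of the 48 called genes, 33 were called under all 11 alternatives, all of them higher. Where a call rested on 1 library, that library is named below by its group and replicate number (control 2, PDGF-DD 3). These lists leave out the fit with a replicate block, whose effect on calls is given with the other settings in the closing section.

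**Figure D1:**
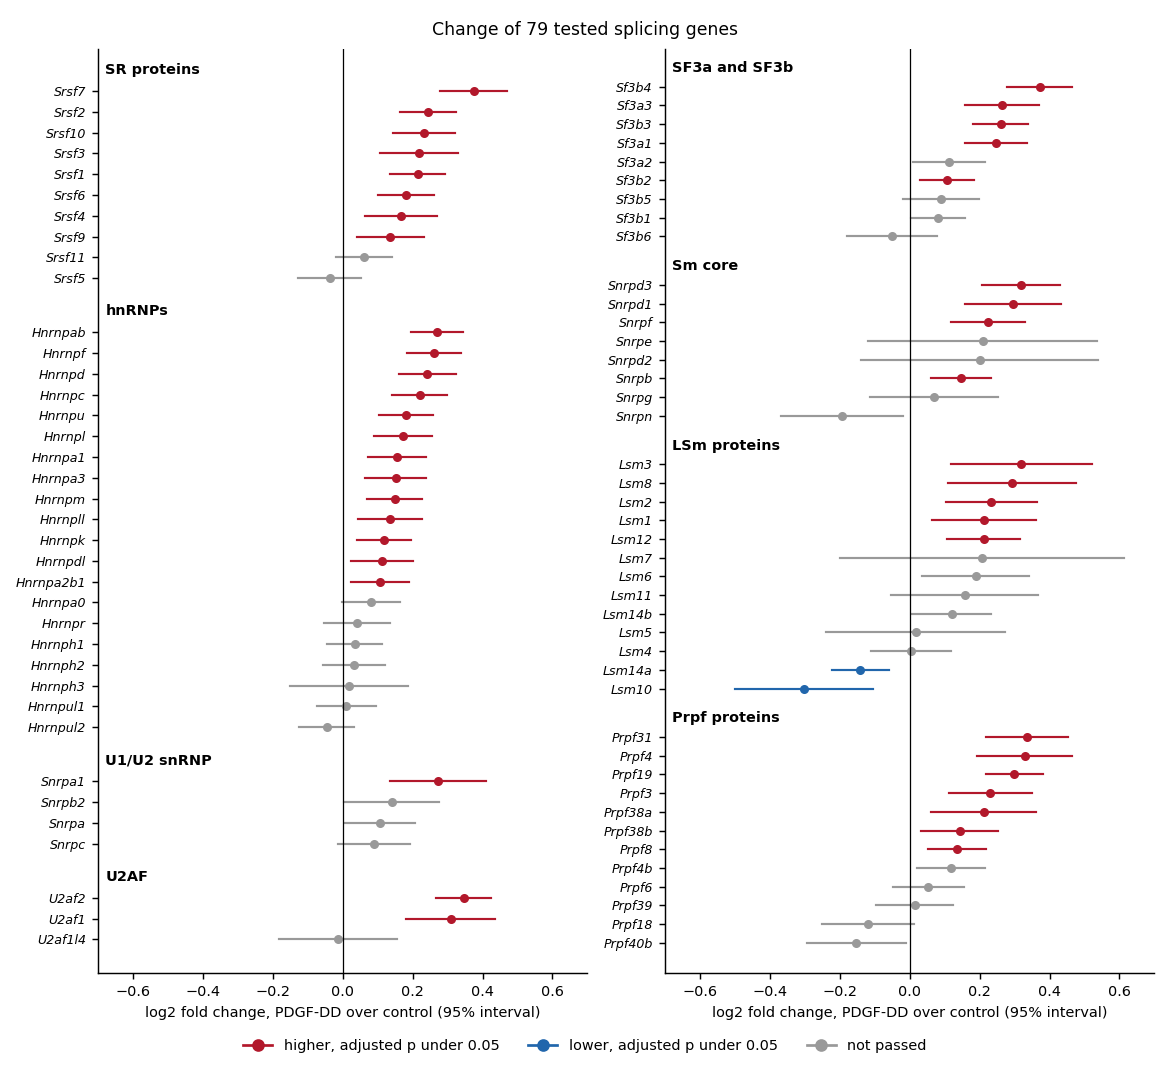
Log2 fold change of 79 tested splicing genes, PDGF-DD over control, by family; points are edgeR estimates and bars their 95% intervals, with 3 libraries a group. Of the points, 45 are coloured as higher and 2, Lsm14a and Lsm10, as lower.

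Among the SR proteins, which bind exonic enhancers through RNA recognition motifs and recruit the spliceosome through arginine-serine tails, 8 of 10 tested members rose and 0 fell (median log2 fold change 0.20). Srsf7, which also takes part in mRNA export and 3′ end choice, had the largest change of the 80 tested genes. It stood at 89.3, 85.8 and 78.6 CPM in the control libraries and 108, 108 and 114 CPM with PDGF-DD, a log2 change of 0.37 ± 0.05 (SE; edgeR adjusted p = 5.41e-07). Srsf2, known as SC35, stood at 232, 225 and 236 CPM without and 265, 275 and 281 CPM with PDGF-DD, a log2 change of 0.24 ± 0.04 (SE; edgeR adjusted p = 1.70e-05). In both genes the lowest PDGF-DD library was above the highest control library. Srsf10, a member that acts as a repressor when dephosphorylated, stood at 98.0, 101 and 93.4 CPM in controls against 118, 112 and 113 CPM in PDGF-DD libraries, a log2 change of 0.23 ± 0.04 (SE; edgeR adjusted p = 0.00012). Srsf1, the founding member of the family, stood at 172, 171 and 167 CPM in the control libraries and 198, 192 and 202 CPM with PDGF-DD, a log2 change of 0.21 ± 0.04 (SE; edgeR adjusted p = 7.22e-05). Srsf3, the smallest member, and Srsf6 had log2 fold changes of 0.22 (adjusted p = 0.00369) and 0.18 (adjusted p = 0.000658), and Srsf4 and Srsf9 of 0.17 (adjusted p = 0.00979) and 0.14 (adjusted p = 0.0242). The call of Srsf4 was lost on leaving out PDGF-DD 1 (highest adjusted p over the alternatives 0.0554). The call of Srsf9 was lost in DESeq2, under upper-quartile scaling and on leaving out control 2 or 3 or PDGF-DD 3 (highest adjusted p over the alternatives 0.0785). The members that did not pass were Srsf5, at 163, 154 and 146 CPM without and 144, 154 and 153 CPM with PDGF-DD, a log2 change of -0.04 ± 0.04 (SE; edgeR adjusted p = 0.53), and Srsf11, with a log2 fold change of 0.06 (adjusted p = 0.237). Srsf5 was the only tested SR gene with a negative estimate.

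The hnRNPs coat nascent transcripts, and many of them silence the splice sites near which they bind. Of 20 tested, 13 rose and 0 fell (median 0.13), a count that fell to 8 without PDGF-DD replicate 3. Hnrnpab, a relative of the A and B proteins, stood at 504, 496 and 511 CPM in controls against 592, 611 and 619 CPM in PDGF-DD libraries, a log2 change of 0.27 ± 0.04 (SE; edgeR adjusted p = 1.84e-06). Hnrnpf, which binds runs of G, stood at 353, 350.2 and 344 CPM in the control libraries and 419, 409 and 426 CPM with PDGF-DD, a log2 change of 0.26 ± 0.04 (SE; edgeR adjusted p = 3.35e-06). Both groups of libraries were separate for each gene. Hnrnpd, known as AUF1 and a regulator of AU-rich mRNAs, stood at 112, 112 and 114 CPM without and 135, 133 and 132 CPM with PDGF-DD, a log2 change of 0.24 ± 0.04 (SE; edgeR adjusted p = 2.19e-05). Hnrnpc, which binds runs of U, stood at 169.8, 167 and 162 CPM in controls against 194, 191 and 196 CPM in PDGF-DD libraries, a log2 change of 0.22 ± 0.04 (SE; edgeR adjusted p = 5.03e-05). Hnrnpa1 and Hnrnpa2b1, classical silencers of splicing, are the most abundant of these transcripts per length. Hnrnpa1 stood at 494, 447 and 452 CPM in the control libraries and 505, 521 and 524 CPM with PDGF-DD, a log2 change of 0.15 ± 0.04 (SE; edgeR adjusted p = 0.0037), and Hnrnpa2b1 at 462, 441 and 419.7 CPM without and 460.1, 483 and 481 CPM with PDGF-DD, a log2 change of 0.11 ± 0.04 (SE; edgeR adjusted p = 0.039). The Hnrnpa2b1 groups overlapped, while the Hnrnpa1 groups did not.

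Among the other hnRNPs that rose, log2 fold changes were 0.18 (adjusted p = 0.000396) for Hnrnpu, the scaffold protein SAF-A, 0.17 (adjusted p = 0.00121) for Hnrnpl, which binds CA repeats, 0.15 (adjusted p = 0.00313) for Hnrnpm and 0.12 (adjusted p = 0.0143) for Hnrnpk, which binds runs of C. Those of Hnrnpa3, Hnrnpll and Hnrnpdl were 0.15 (adjusted p = 0.00629), 0.14 (adjusted p = 0.0177) and 0.11 (adjusted p = 0.0456). The call of Hnrnpa2b1 was lost under upper-quartile scaling and on leaving out control 2 or 3 or PDGF-DD 2 or 3 (highest adjusted p over the alternatives 0.209). The call of Hnrnpk was lost on leaving out control 3 or PDGF-DD 3 (highest adjusted p over the alternatives 0.0782). Hnrnpdl lost its call in DESeq2, under upper-quartile scaling and on leaving out control 2 or 3 or PDGF-DD 1, 2 or 3 (highest adjusted p 0.194), and Hnrnpa3 and Hnrnpll lost theirs without PDGF-DD replicate 3 (highest adjusted p 0.0567 and 0.0985). Of the 4 members of the H and F group, Hnrnpf was called, and Hnrnph1, Hnrnph2 and Hnrnph3 had log2 fold changes of 0.03 (adjusted p = 0.524), 0.03 (adjusted p = 0.608) and 0.02 (adjusted p = 0.881). Hnrnpul1, Hnrnpul2, Hnrnpr and Hnrnpa0 did not pass, with log2 fold changes of 0.01 (adjusted p = 0.87), -0.05 (adjusted p = 0.374), 0.04 (adjusted p = 0.525) and 0.08 (adjusted p = 0.127). Hnrnpa0 passed without PDGF-DD replicate 1 (adjusted p = 0.0438).

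Recognition of the 3′ end of the intron begins with U2AF, whose large subunit U2af2 binds the polypyrimidine tract and whose small subunit U2af1 binds the terminal AG. Both rose. U2af2 stood at 166, 163 and 159.5 CPM in controls against 204, 205 and 213 CPM in PDGF-DD libraries, a log2 change of 0.35 ± 0.04 (SE; edgeR adjusted p = 7.51e-08). U2af1 stood at 57.8, 48.3 and 47.9 CPM in the control libraries and 64.7, 61.7 and 64.3 CPM with PDGF-DD, a log2 change of 0.31 ± 0.06 (SE; edgeR adjusted p = 0.000421). Neither gene had a PDGF-DD library within the range of the controls. U2af1l4, a paralog of the small subunit, stood at 15.4, 13.8 and 15.2 CPM without and 13.0, 15.9 and 15.1 CPM with PDGF-DD, with overlapping groups and a log2 fold change of -0.01 (adjusted p = 0.912). Of the 4 Snrp genes specific to U1 or U2, 1 rose. Snrpa1, a protein that forms a pair with Snrpb2 on U2, stood at 43.5, 35.3 and 38.0 CPM in controls against 44.4, 49.1 and 47.4 CPM in PDGF-DD libraries, a log2 change of 0.27 ± 0.07 (SE; edgeR adjusted p = 0.00268). Snrpa and Snrpc of U1 and Snrpb2 of U2 did not pass, with log2 fold changes of 0.11 (adjusted p = 0.0882), 0.09 (adjusted p = 0.17) and 0.14 (adjusted p = 0.103). Snrpc and Snrpb2 passed without control replicate 1, which brought the group to 3, and Snrpa passed without control replicate 3 (lowest adjusted p 0.046, 0.0101 and 0.0446).

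The SF3a and SF3b complexes anchor U2 at the branch site, and 5 of their 9 genes rose while 0 fell (median 0.11). Sf3b4, an SF3b subunit that contacts the RNA upstream of the branch site, stood at 84.0, 81.7 and 85.0 CPM in the control libraries and 104, 114 and 106 CPM with PDGF-DD, a log2 change of 0.37 ± 0.04 (SE; edgeR adjusted p = 3.08e-07). Sf3b3, a scaffold subunit, stood at 162, 169.8 and 171 CPM without and 202, 199 and 200.1 CPM with PDGF-DD, a log2 change of 0.26 ± 0.04 (SE; edgeR adjusted p = 5.95e-06). Both separated the groups. Sf3a1, a subunit of SF3a, stood at 83.7, 85.8 and 87.0 CPM in controls against 105, 101 and 98.3 CPM in PDGF-DD libraries. Its partner Sf3a3 stood at 41.3, 38.2 and 38.3 CPM in the control libraries and 46.5, 48.4 and 46.8 CPM with PDGF-DD. Their log2 fold changes were 0.25 (adjusted p = 5.18e-05) and 0.26 (adjusted p = 0.000202), and that of Sf3b2 was 0.11 (adjusted p = 0.0284). The call of Sf3b2 was lost under upper-quartile scaling and on leaving out control 1 or PDGF-DD 3 (highest adjusted p over the alternatives 0.0881). Sf3b1, the large subunit that holds the branch-site adenosine, stood at 229, 236 and 223 CPM without and 244, 239 and 245 CPM with PDGF-DD. Its log2 fold change of 0.08 (adjusted p = 0.105) did not pass. Sf3a2, Sf3b5 and Sf3b6 did not pass either, with log2 fold changes of 0.11 (adjusted p = 0.0805), 0.09 (adjusted p = 0.202) and -0.05 (adjusted p = 0.565). Sf3b5 passed without control replicate 1, and Sf3a2 with no filter on low counts or without PDGF-DD replicate 3 (lowest adjusted p 0.019 and 0.00784).

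The Sm ring is shared by U1, U2, U4 and U5, and 4 of the 8 Sm core genes rose while 0 fell (median 0.20). Snrpd3 stood at 51.4, 45.0 and 44.6 CPM in controls against 58.9, 60.2 and 56.6 CPM in PDGF-DD libraries, a log2 change of 0.32 ± 0.05 (SE; edgeR adjusted p = 4.36e-05). Snrpd1 stood at 53.4, 45.4 and 43.5 CPM in the control libraries and 55.4, 59.8 and 59.4 CPM with PDGF-DD, a log2 change of 0.30 ± 0.06 (SE; edgeR adjusted p = 0.00151). Snrpf and Snrpb had log2 fold changes of 0.22 (adjusted p = 0.00117) and 0.15 (adjusted p = 0.00693), and Snrpb, which encodes SmB, was the most abundant of the ring per length, at 139, 133 and 137 CPM without and 144, 159 and 150.2 CPM with PDGF-DD. These 4 genes separated the groups. Snrpe stood at 42.9, 32.2 and 30.5 CPM in controls against 41.1, 40.9 and 40.1 CPM in PDGF-DD libraries, and Snrpd2 at 57.9, 43.1 and 42.7 CPM in the control libraries and 52.7, 56.8 and 55.5 CPM with PDGF-DD. In both, control replicate 1 was above all PDGF-DD libraries and the other controls were below them. Their log2 fold changes were 0.21 (adjusted p = 0.285) and 0.20 (adjusted p = 0.316), and without control replicate 1 both passed (adjusted p = 8.24e-06 and 3.44e-06). Snrpg did not pass under any alternative, with a log2 fold change of 0.07 (adjusted p = 0.57). Snrpn, an imprinted gene whose transcript also encodes Snurf, stood at 10.8, 10.8 and 11.2 CPM without and 9.57, 9.95 and 9.14 CPM with PDGF-DD. All PDGF-DD libraries were below the controls, and the log2 fold change of -0.20 (adjusted p = 0.0753) passed only under upper-quartile scaling, where 19.9% of all genes were lower (adjusted p = 0.0497). Snrpn shares exons on its strand with Snurf, so its count is uncertain.

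The LSm family had 5 of 13 genes higher (38.5%) and 2 lower (15.4%), with a median of 0.19. Over all tested genes 19.1% were higher and 17.4% lower, so the lower share was near that of all genes. LSm2 to LSm8 form the ring on U6, and 3 of those 7 genes, Lsm3, Lsm8 and Lsm2, rose. Lsm3 stood at 17.6, 13.3 and 13.3 CPM in controls against 19.6, 18.3 and 17.2 CPM in PDGF-DD libraries, a log2 change of 0.32 ± 0.10 (SE; edgeR adjusted p = 0.0146). Lsm8, the subunit that marks the nuclear ring, stood at 18.3, 14.4 and 13.8 CPM in the control libraries and 19.7, 19.1 and 18.3 CPM with PDGF-DD, a log2 change of 0.29 ± 0.09 (SE; edgeR adjusted p = 0.0121). In each of them control replicate 1 reached into the range of the PDGF-DD libraries. Lsm2 and Lsm12 had log2 fold changes of 0.23 (adjusted p = 0.00472) and 0.21 (adjusted p = 0.00166). Lsm1, which replaces Lsm8 in the cytoplasmic ring that promotes mRNA decapping, stood at 17.1, 15.9 and 14.8 CPM without and 18.8, 18.8 and 17.7 CPM with PDGF-DD, a log2 change of 0.21 ± 0.07 (SE; edgeR adjusted p = 0.0228). Lsm14a, a translational repressor of processing bodies, stood at 135, 143 and 136 CPM in controls against 126, 126 and 123 CPM in PDGF-DD libraries, a log2 change of -0.14 ± 0.04 (SE; edgeR adjusted p = 0.00624). Lsm10, which takes the place of an Sm protein in the U7 snRNP of histone mRNA processing, stood at 14.0, 11.8 and 11.7 CPM in the control libraries and 9.94, 11.4 and 9.09 CPM with PDGF-DD, a log2 change of -0.30 ± 0.10 (SE; edgeR adjusted p = 0.0139). Both of these genes had every PDGF-DD library below every control library. Lsm11, the other LSm protein of U7, had the lowest TPM of the tested members and a log2 fold change of 0.16 (adjusted p = 0.241).

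In the LSm family the calls of Lsm2 and Lsm12 held under all 11 alternatives, while the other calls depended on single libraries. The count of higher members was 2 on leaving out control 2, control 3 or PDGF-DD 1, 3 on leaving out PDGF-DD 2, and 7 on leaving out control 1. Lsm3 and Lsm8 each lost the call on leaving out control 2 or 3 or PDGF-DD 1 or 2 (highest adjusted p 0.076 and 0.0733). The call of Lsm1 was lost in DESeq2 and on leaving out control 2 or 3 or PDGF-DD 1 or 2 (highest adjusted p over the alternatives 0.122). The call of Lsm14a was lost on leaving out PDGF-DD 3 (highest adjusted p over the alternatives 0.0544). The call of Lsm10 was lost in DESeq2 and on leaving out control 1 or PDGF-DD 1 or 3 (highest adjusted p over the alternatives 0.125). Lsm7 stood at 23.3, 15.8 and 15.9 CPM without and 22.4, 20.4 and 20.6 CPM with PDGF-DD, with a log2 fold change of 0.21 (adjusted p = 0.396), and passed without control replicate 1 (adjusted p = 5.43e-05). Lsm4, Lsm5, Lsm6 and Lsm14b did not pass, with log2 fold changes of 0.00 (adjusted p = 0.976), 0.02 (adjusted p = 0.932), 0.19 (adjusted p = 0.0507) and 0.12 (adjusted p = 0.0894). Of these, Lsm6 passed under total count scaling, with no filter on low counts, and on leaving out control 1 or PDGF-DD 2 (lowest adjusted p 0.00449).

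The Prpf genes are named after yeast mutants in pre-mRNA processing and encode parts of the tri-snRNP, the Prpf19 complex and U1-associated factors. Of 13, 8 rose and 0 fell (median 0.14). Prpf19, the ubiquitin ligase at the core of the complex named after it, stood at 104, 104 and 106 CPM in controls against 128, 129.5 and 128 CPM in PDGF-DD libraries, a log2 change of 0.30 ± 0.04 (SE; edgeR adjusted p = 1.15e-06). Prpf31, which bridges U4 and U6 to U5, stood at 46.1, 44.3 and 40.8 CPM in the control libraries and 50.8, 58.1 and 56.6 CPM with PDGF-DD, a log2 change of 0.33 ± 0.06 (SE; edgeR adjusted p = 4.91e-05). Prpf4, a partner of Prpf3 in the U4/U6 particle, stood at 23.1, 20.8 and 21.1 CPM without and 26.2, 26.9 and 28.6 CPM with PDGF-DD, a log2 change of 0.33 ± 0.07 (SE; edgeR adjusted p = 0.000273). These 3 genes separated the groups. Prpf8, the U5 protein that cradles the catalytic RNA, was the most abundant Prpf gene per length and stood at 306, 334 and 335 CPM in controls against 357, 349.5 and 365 CPM in PDGF-DD libraries, a log2 change of 0.14 ± 0.04 (SE; edgeR adjusted p = 0.0103). The log2 fold change of Prpf3 was 0.23 (adjusted p = 0.0026), and those of Prpf38a and Prpf38b were 0.21 (adjusted p = 0.0252) and 0.14 (adjusted p = 0.0381). The call of Prpf38a was lost in DESeq2 and on leaving out control 2 or 3 or PDGF-DD 2 or 3 (highest adjusted p over the alternatives 0.125). The call of Prpf38b was lost in DESeq2, under upper-quartile scaling and on leaving out control 2 or PDGF-DD 1 (highest adjusted p over the alternatives 0.264). Other members did not pass. Prpf4b, a kinase of the tri-snRNP, had a log2 fold change of 0.12 (adjusted p = 0.053), Prpf6 of 0.05 (adjusted p = 0.428), Prpf39 of 0.01 (adjusted p = 0.869), Prpf18 of -0.12 (adjusted p = 0.148) and Prpf40b of -0.15 (adjusted p = 0.0854). Prpf4b passed under total count scaling, with no filter on low counts, and without PDGF-DD replicate 2 (lowest adjusted p 0.0116). Every PDGF-DD library of Prpf40b lay below the controls.

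**Figure D2:**
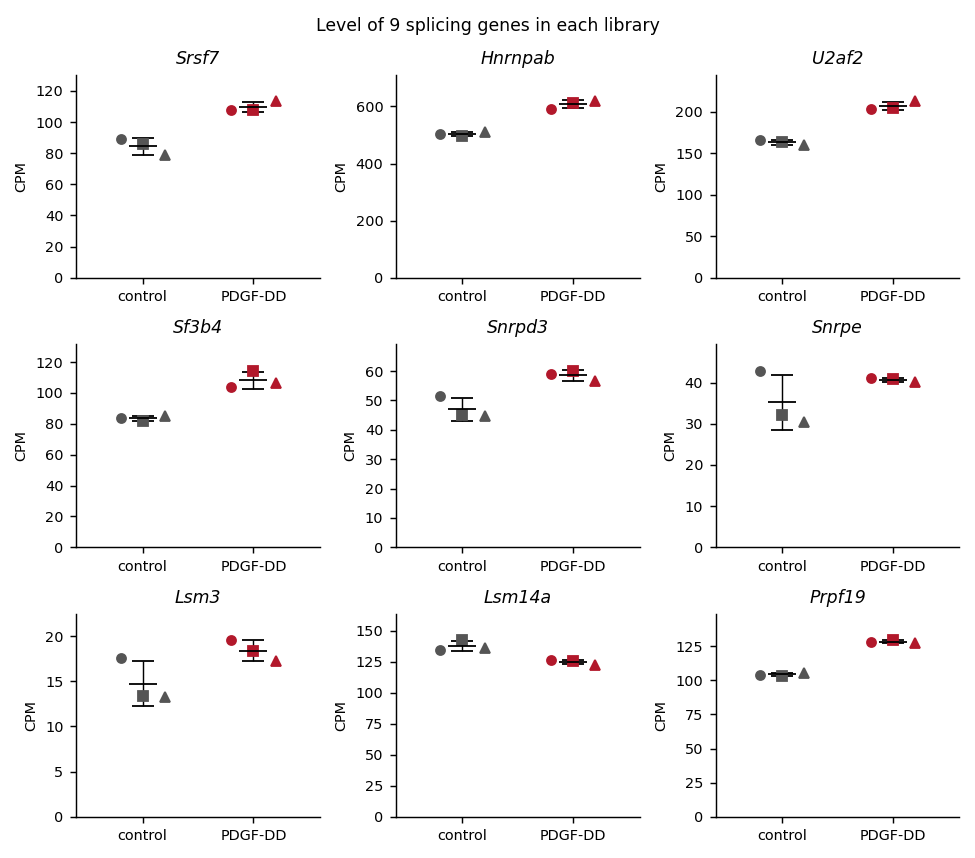
Level in CPM of 9 splicing genes in each library, control left and PDGF-DD right; circles, squares and triangles are replicates 1, 2 and 3, and bars the mean ± SD (n = 3). In Snrpe and Lsm3 control replicate 1 lies near the PDGF-DD libraries, while in Srsf7, Hnrnpab, U2af2, Sf3b4, Snrpd3, Prpf19 and, in the other direction, Lsm14a the groups are separate.

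Levels between genes were compared in TPM, a unit of relative abundance corrected for transcript length. All 82 genes together went from 9436 ± 69.5 to 10502 ± 91.3 TPM (mean ± SD, n = 3 a group), a description of the sum without a test. The hnRNPs made up the largest part, 4063 ± 64.4 to 4479 ± 81.4 TPM, followed by the Sm core with 1375 ± 95.9 to 1572 ± 32.8 TPM and the SR proteins with 1199.7 ± 13.4 to 1343 ± 23.4 TPM. In the control libraries the order was led by Hnrnpa1 at 598 ± 16.2 TPM, Hnrnpa2b1 at 528 ± 8.53 TPM, Hnrnpab at 474 ± 14.6 TPM, Hnrnpk at 435 ± 8.29 TPM and Hnrnpf at 361 ± 8.48 TPM, each step larger than the SDs of its neighbours. Below them, Snrpb at 290.3 ± 5.93 TPM, Srsf2 at 266 ± 9.61 TPM, Snrpd2 at 246 ± 37.4 TPM and Srsf5 at 234 ± 7.34 TPM followed, and Snrpd2 was within 1 SD of both Srsf2 and Srsf5. The lowest tested gene was Lsm11 at 4.59 ± 0.525 TPM. Proteins that sit in one ring did not have equal transcript levels. In the Sm core, Snrpn apart, the range ran from Snrpb down to Snrpd1 at 137 ± 11.3 TPM. In the U6 ring it ran from Lsm7 at 98.6 ± 20.5 TPM and Lsm4 at 95.5 ± 3.75 TPM to Lsm5 at 30.1 ± 4.61 TPM and Lsm6 at 16.0 ± 1.48 TPM. Snrpn stood at 12.6 ± 0.510 TPM.

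Short transcripts were higher in control replicate 1 than in the other controls. Transcript lengths were taken as the length implied by each gene's count and FPKM, a level per length and library size, available for the 78 genes with an FPKM of at least 5 in every library. Of the 17 splicing genes under 1000 bases, 15 had their highest control value in control replicate 1, with a median log2 ratio of 0.25 over the mean of the others, and of the 61 longer genes 29 did, with a median of 0.02. Across the 78 genes the Spearman correlation of length with this ratio was -0.71, and across 7731 tested genes it was -0.61, in both cases a description over genes of the same libraries. Among those 7731 genes, all with an FPKM of at least 5 in every library, 13.9% of the 710 under 1000 bases were called higher with PDGF-DD and 26.9% of longer ones. For the splicing genes, 7 under 1000 bases were called higher with all libraries and 12 without control replicate 1, while the count among longer genes went from 39 to 40. Why this library differs was not tested.

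**Figure D3:**
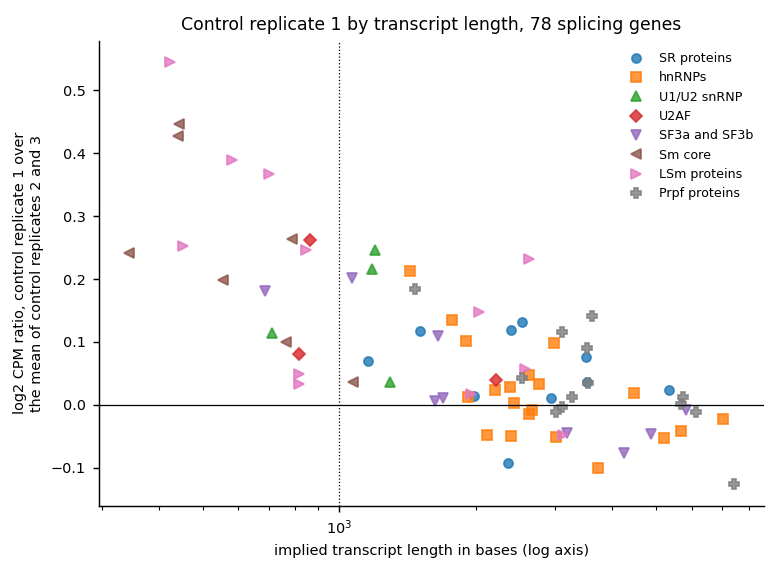
Log2 ratio of CPM in control replicate 1 over the mean of control replicates 2 and 3 against implied transcript length in bases on a log axis, for 78 splicing genes coloured by family. The 17 genes left of the dotted line at 1000 bases all lie above 0, with a median of 0.25, and the 61 longer genes have a median of 0.02.

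Genes of the same pathway that the symbol families leave out were counted in lists. Of the 20 genes of snRNP assembly, which load the Sm ring with the SMN complex after PRMT5 has methylated Sm proteins, 14 rose and 0 fell (median 0.27, against -0.01 over all tested genes). Wdr77, the partner of PRMT5, stood at 69.5, 67.0 and 68.3 CPM in the control libraries and 93.2, 96.5 and 95.6 CPM with PDGF-DD, a log2 change of 0.48 ± 0.04 (SE; edgeR adjusted p = 2.18e-09). Prmt5 stood at 49.8, 50.0 and 54.4 CPM without and 68.8, 70.1 and 68.5 CPM with PDGF-DD, a log2 change of 0.43 ± 0.05 (SE; edgeR adjusted p = 9.87e-08). Gemin5, which recognises snRNAs for the SMN complex, stood at 39.9, 42.8 and 40.0 CPM in controls against 55.2, 51.6 and 59.4 CPM in PDGF-DD libraries, a log2 change of 0.44 ± 0.06 (SE; edgeR adjusted p = 5.26e-07). In all 3 genes the groups were separate. Strap, the most abundant gene of the list in TPM, had a log2 fold change of 0.26 (adjusted p = 1.03e-05). Of 30 further snRNP proteins, 16 rose and 0 fell (median 0.14), among them Snu13, a protein of U4, at 0.39 (adjusted p = 3.88e-06), the helicase Dhx15 at 0.29 (adjusted p = 1.26e-06) and the U5 GTPase Eftud2 at 0.27 (adjusted p = 4.73e-06). Luc7l2, a U1-associated protein, did not pass at 0.04 (adjusted p = 0.448).

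The exon junction complex, which the spliceosome leaves on joined exons, had 5 of 9 genes higher and 0 lower (median 0.22), including Pnn at 0.31 (adjusted p = 9.98e-06), Rnps1 at 0.23 (adjusted p = 6.37e-05) and the core helicase Eif4a3 at 0.23 (adjusted p = 0.000157), while Acin1 did not pass at 0.06 (adjusted p = 0.27). The Prpf19 complex and the factors of the catalytic steps had 7 of 22 higher and 0 lower (median 0.07), with Ppil1 at 0.36 (adjusted p = 0.000119), Plrg1 at 0.29 (adjusted p = 3.77e-05), Cactin at 0.19 (adjusted p = 0.00357) and Bud31, the most abundant in TPM, at 0.12 (adjusted p = 0.261). The count of the exon junction complex was 3 on leaving out control 2, control 3 or PDGF-DD 3, and that of the Prpf19 list was 4 on leaving out control 2 or PDGF-DD 1. Of the SR protein kinases and transport factors, 2 of 8 tested rose, Srpk1 at 0.29 (adjusted p = 2.91e-05) and the importer Tnpo3 at 0.18 (adjusted p = 0.0022), and the median was -0.01. The decay factors that work with the LSm1-7 ring had 3 of 8 higher and 1 lower (median -0.02), with Edc3 at 0.23 (adjusted p = 0.00891), Patl1 at 0.15 (adjusted p = 0.0258), the exonuclease Xrn1 at -0.15 (adjusted p = 0.0362) and the helicase Ddx6 at -0.03 (adjusted p = 0.649). Here the higher count was 1 on leaving out control 1, PDGF-DD 1 or PDGF-DD 3, and the lower count was 0 on leaving out control 2, control 3, PDGF-DD 2 or PDGF-DD 3. Among 39 other splicing regulators, 13 rose and 2, Celf2 and Raly, fell (median 0.08), with Elavl1 at 0.27 (adjusted p = 1.36e-05), Tra2b at 0.23 (adjusted p = 2.86e-05) and Tardbp at 0.23 (adjusted p = 4.20e-05). The lower count was 1 on leaving out control 2, PDGF-DD 1 or PDGF-DD 2. Ptbp1, the polypyrimidine tract binding repressor, stood at 489, 499 and 535 CPM in the control libraries and 599.5, 584 and 579 CPM with PDGF-DD, a log2 change of 0.21 ± 0.04 (SE; edgeR adjusted p = 0.000121). All values in these lists are log2 fold changes with edgeR adjusted p. Against the background of 19.1% higher, the lists of kinases and of the Prpf19 complex stood at 25.0% and 31.8%, and snRNP assembly at 70.0%.

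**Figure D4:**
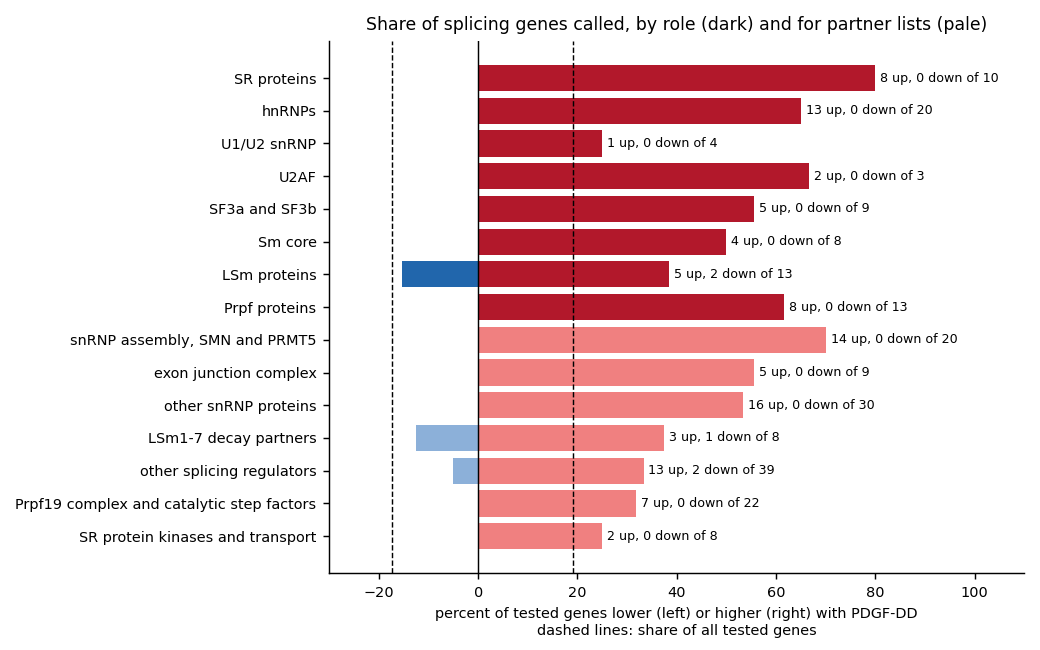
Percent of tested genes called higher (right) or lower (left) with PDGF-DD in each family of splicing genes (dark bars) and in each list of pathway genes (pale bars), with the counts beside the bars. Dashed lines mark the 19.1% higher and 17.4% lower among all 13270 tested genes. All families lie to the right of the higher line, though the U1 and U2 proteins do so by 1 of 4 genes (25.0%).

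Splicing genes are known to be regulated through their own alternative exons, and the readout of transcript choice used here is the implied transcript length, an average over a gene's isoforms as RSEM estimated them. Among the 78 splicing genes it varied in 38, and of these 0 passed limma at an adjusted p under 0.05, 2 at an unadjusted p under 0.05. Over all 4211 genes whose length varied, 0.0237% passed the adjusted and 8.62% the unadjusted threshold. Srsf11 had 3507, 3566 and 3507 bases in the control libraries and 3434, 3416 and 3411 bases with PDGF-DD, a log2 difference of -0.04 (SE 0.00790, limma adjusted p = 0.305). Srsf7 had 2389, 2401 and 2391 bases in the control libraries and 2374, 2367 and 2378 bases with PDGF-DD (limma adjusted p = 0.469). In both genes the PDGF-DD libraries lay below the controls, and the groups did not overlap in 5 of the 38. Such separation, in either direction, arises in 10% of the ways to split the libraries into equal groups. Its share over all genes whose length varied was not counted, so the 5 genes alone do not show a change of isoforms. Genes with a constant implied length, such as Snrpe and Srsf3, carry no information on isoforms here.

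**Figure D5:**
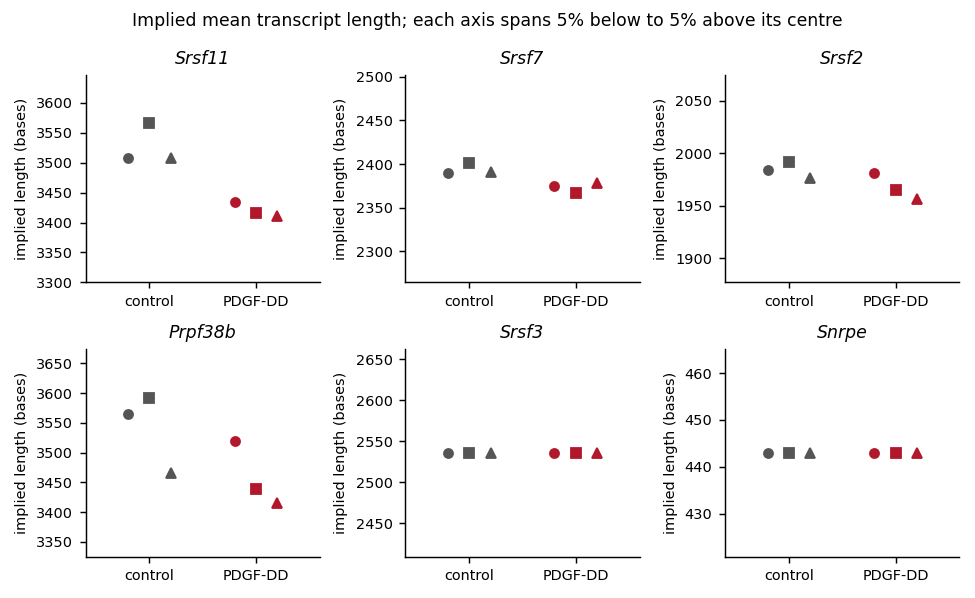
Implied mean transcript length in bases of 6 splicing genes in each library, control left and PDGF-DD right; symbols are replicates 1, 2 and 3, and each axis spans 5% on either side of its centre. Srsf11 and Srsf7 are lower in all PDGF-DD libraries by a few percent or less, and Srsf3 and Snrpe do not vary.

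Several of these genes have close copies in the genome. Of the 81 with a coding sequence in GENCODE M21, 25 had at least 1 other transcript at 95% identity or more over at least 80% of that sequence, nearly all annotated pseudogenes, with 19 for Hnrnpa3 and 4 each for Hnrnpf, Srsf3, Lsm6 and Snrpg. None of those copies is a row of the tables, so how reads from them were assigned cannot be seen and the levels of these genes are uncertain to that extent. Exons of 13 of the 82 genes overlap those of a gene on the opposite strand, for example Srsf2 with Mettl23 and Mfsd11, Hnrnpab with Phykpl, Snrpd3 with Gucd1 and Hnrnpk with Rmi1. Whether strand was used in counting is not given in the sources used here.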

How the data were processed

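RNA was read from 6 libraries, and 1 table per library was deposited with values per gene. The authors' deposited tables hold RSEM estimated counts, of which 31.9% to 32.7% per library are not whole numbers, and the deposited FPKM and TPM values, which are scaled to library size and transcript length. HISAT2 2.0.4, Bowtie2 2.2.5, RSEM 1.2.12, DESeq2 1.4.5 and mm9 are named, per the submitters' processing notes, without their roles. The gene annotation, strand setting and filters were not given in the sources used here. The estimated counts were rounded, genes low in count were removed with filterByExpr, and the 13270 remaining genes were fitted in edgeR 4.0.16 (R 4.3.3) with TMM scaling (factors 0.995 to 1.01), robust quasi-likelihood tests and Benjamini-Hochberg adjustment over all tested genes (two-sided, threshold 0.05). CPM are scaled by TMM, and the common biological coefficient of variation was 3.96%. Library totals were 21221114 to 21371829, and tested splicing genes had 102 to 13278 counts per library. Implied transcript length is proportional to the count divided by the product of FPKM and library total, in bases, tested with limma 3.58.1 on log2 values for genes with FPKM of at least 5 and an SD of at least 0.002; this readout was added after seeing the data. The scripts were tested on simulated data with 200 changed genes. Coding sequences were compared with blastn 2.17.0 against GENCODE M21. Alternatives were DESeq2 1.42.0, upper-quartile and total count scaling, no low-count filter, a replicate block and each library left out. The members and all lists were chosen with earlier results of these data known. Values in each library were given, for each family, for many of the called genes of smallest p, the genes of highest CPM and the largest changes. Some such genes, among them Lsm12, Lsm2, Snrpf, Hnrnpk and Srsf6, were given without them. Library values were also given for some members outside that choice, such as Snrpe, Snrpd2 and Lsm7, and any other member could be named. The values of 1 member are not reported here, though it is counted in the totals. In each pathway list up to 3 called genes of smallest p were named, and the one of highest mean CPM; Luc7l2 was chosen after its values were seen.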

Additional observations from a re-analysis of the deposited data

How the results depend on the processing

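None of the 48 called splicing genes changed direction under the 11 alternatives. The number higher was 41 in DESeq2, 41 under upper-quartile scaling, 48 under total count scaling and 49 with no low-count filter, and 38 to 52 when 1 library was left out, against 46, and the median log2 fold change lay between 0.13 and 0.17. Over all tested genes, 15.6% were higher and 12.6% lower in DESeq2, and 16.9% and 19.9% under upper-quartile scaling. The number higher over all genes was 1995 to 2709 over the alternatives and 2147 to 2643 when 1 library was left out, against 2535. Of the 32 splicing genes that did not pass, 12 passed under at least 1 alternative. The number of splicing genes lower was 1 in DESeq2 and 0 to 2 without 1 library, in each case within the LSm family, which had 1 lower in DESeq2, 0 to 2 lower and 2 to 7 higher without 1 library. The Sm core had 1 lower (Snrpn) under upper-quartile scaling. Leaving out 1 library gave 1 to 3 higher among the U1 and U2 proteins and 8 to 13 among the hnRNPs. In the pathway lists, the decay partners had 1 higher in DESeq2, 1 under upper-quartile scaling and 1 to 3 without 1 library, and 0 lower in DESeq2, 0 under total count scaling, 0 with the replicate block and 0 to 1 without 1 library. The Prpf19 list had 4 higher in DESeq2 and 4 to 7 without 1 library, the exon junction complex 3 under upper-quartile scaling and 3 to 6 without 1 library, and the other regulators 1 lower in DESeq2, 1 with the replicate block and 1 to 2 without 1 library. The counts showed no pairing by replicate number. Same-numbered deviations correlated at -0.0661, -0.0911 and -0.0257, and no library correlated best with its own number. These correlations cannot tell whether same-numbered libraries shared a culture or animal. With the replicate block Srsf9, Hnrnpk, Hnrnpa2b1, Hnrnpdl, Sf3b2 and Prpf38b were no longer called and Snrpe and Lsm7 passed, so that 42 splicing genes were higher and 2 lower (all genes higher with PDGF-DD 2269, all genes lower with PDGF-DD 2076). No implied length passed under any setting tried, including an FPKM minimum of 10. With 3 libraries a group and changes under 1.5-fold, genes of few counts, such as Lsm5 (SE 0.124), leave wide intervals. Those of Lsm7, Snrpd2 and Snrpe were wider at higher counts (SE 0.165, 0.133 and 0.132). In these genes control replicate 1 stood above the other controls.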
